A study of Mus musculus with 4 samples.

Results

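Myosin heavy chains are the motor subunits of myosin, and the 10 genes described here are the muscle and nonmuscle heavy chain genes Myh1, Myh2, Myh3, Myh4, Myh6, Myh7, Myh7b, Myh8, Myh9 and Myh10. They were taken by gene symbol from a table of read counts, in which all 10 were found among 23282 features. The counts are of nascent RNA, the RNA that stayed bound to chromatin in isolated nuclei, from C2C12 myotubes, the multinucleated cells that this established mouse myoblast line (female, per the labels) forms when it differentiates. Before treatment the myotubes of every group had been deprived of steroids. One group received vehicle for 2 h and the other 1 µM dexamethasone, a synthetic glucocorticoid, for the same 2 h, with 2 libraries in each group. The question put to these genes was whether their nascent RNA differed between dexamethasone and vehicle.

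Each myosin heavy chain has a head that binds actin and splits ATP and a long coiled tail that packs into filaments. Skeletal muscle uses several heavy chain genes in turn, embryonic and perinatal forms while fibres are being built and fast or slow adult forms in mature fibres, and the form present sets much of a fibre's speed of contraction. Nonmuscle heavy chains drive cell shape, adhesion and division in most cell types, muscle precursors included.

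The libraries held 19631435 and 35116830 counts for vehicle 1 and vehicle 2, and 32463331 and 88596296 for dexamethasone 1 and dexamethasone 2. Nothing in the labels says whether the libraries of a group came from separate cultures, so p-values measure only the spread between these libraries, which may be technical. Levels are given in CPM, a gene's counts relative to its library's total, scaled by the trimmed mean of M-values (TMM), and the 95% Wilson intervals given for shares cover counting error only. Markers of myotubes were present in every library, with a summed level of 1204 to 2210 CPM over 8 genes, here without TMM scaling. Of 7 cardiac markers, Nppa, Nppb, Myl7 and Nkx2-5 had 0 to 2 counts in any library, Tnni3 2 to 10 and Ryr2 3 to 22, while Gata4 read 17.1 to 19.2 CPM. Since these are bulk libraries, fewer cells of a type and less RNA per cell cannot be told apart.

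Of the heavy chain genes, 5 lie side by side on chromosome 11 in the order Myh3, Myh2, Myh1, Myh4 and Myh8, followed by Myh13 of extraocular muscle, and their proximal promoters are shown because these genes shared the pattern across libraries described below. Each sequence holds the 250 bases before the gene's start on the plus strand, from the RefSeq promoter table of GRCm38.p6. Capitals mark TATAAA and 2 runs shared between promoters.
Myh3, chr11:67078050-67078299: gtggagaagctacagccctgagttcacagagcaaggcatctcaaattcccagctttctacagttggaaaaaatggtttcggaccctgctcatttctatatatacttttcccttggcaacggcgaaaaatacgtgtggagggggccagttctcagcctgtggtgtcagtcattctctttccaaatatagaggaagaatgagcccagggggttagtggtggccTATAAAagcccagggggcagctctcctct
Myh8, chr11:67276874-67277123: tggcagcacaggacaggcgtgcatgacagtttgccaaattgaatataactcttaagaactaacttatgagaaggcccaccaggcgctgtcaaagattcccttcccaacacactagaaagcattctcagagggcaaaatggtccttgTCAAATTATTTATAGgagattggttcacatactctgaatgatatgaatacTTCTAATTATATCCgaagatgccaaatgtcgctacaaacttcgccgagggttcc
Myh2, chr11:67170777-67171026: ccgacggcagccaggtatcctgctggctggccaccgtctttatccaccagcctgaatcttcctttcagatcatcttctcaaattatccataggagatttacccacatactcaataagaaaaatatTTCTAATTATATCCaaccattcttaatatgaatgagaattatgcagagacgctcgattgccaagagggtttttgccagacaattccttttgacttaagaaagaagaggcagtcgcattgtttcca
Myh1, chr11:67199852-67200101: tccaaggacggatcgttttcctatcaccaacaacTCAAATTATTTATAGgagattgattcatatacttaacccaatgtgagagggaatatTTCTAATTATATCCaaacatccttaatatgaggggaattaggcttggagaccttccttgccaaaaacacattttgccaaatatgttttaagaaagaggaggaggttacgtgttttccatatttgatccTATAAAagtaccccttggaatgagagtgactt
Myh4, chr11:67237562-67237811: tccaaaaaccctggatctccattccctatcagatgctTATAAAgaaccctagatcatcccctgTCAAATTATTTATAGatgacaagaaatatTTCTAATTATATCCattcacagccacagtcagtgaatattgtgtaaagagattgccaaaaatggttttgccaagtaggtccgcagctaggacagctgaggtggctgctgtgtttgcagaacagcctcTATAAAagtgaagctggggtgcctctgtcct

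The run TTCTAATTATATCC stood in the promoters of Myh1, Myh2, Myh4 and Myh8, beginning 160, 125, 158 and 54 bases before the start. Among 32851 promoter windows of the same length it was found in those 4, which is 0.0122%. The longer run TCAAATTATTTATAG stood in Myh1, Myh4 and Myh8 and in no other promoter of the table, 0.00913% of them. Myh3 held neither run. Both runs were found by comparing these promoters with each other, so their rarity elsewhere is a description and not a test.

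Short motifs were also counted on both strands of the same windows in all 10 genes. The E-box CANNTG, the site of myogenic factors such as MyoD, was in 8 of 10 promoters, all but Myh1 and Myh2, and in 66.2% of all promoters. TATAAA was in 5 of 10 (Myh1, Myh3, Myh4, Myh8, Myh9) and in 12.4% of all promoters. In Myh1, Myh4 and Myh8 the longer run holds that motif on the minus strand, and in Myh8 the plus strand holds none. CATTCC, the MCAT motif of TEAD factors, was in 5 of 10 (Myh1, Myh4, Myh6, Myh7, Myh10) against 12.6% of all promoters. The MEF2 consensus, a search widened after the shared runs were seen, was in 3 of 10 (Myh1, Myh4, Myh8) against 2.92%, and in each of the 3 the longer run holds a match. The hexamer AGAACA, which is one arm of a glucocorticoid response element, was in Myh4 alone, against 16.1% of all promoters. That hexamer followed after 3 bases by TGTNCT, the whole element, was in 0 of 10 and in 0.0365% of all promoters. A match in such a window is a description of its letters and not a binding site.

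Myh3, the embryonic heavy chain, was the most abundant of the family in every library. It had 61648 counts in vehicle 1, 41298 in vehicle 2, 104749 in dexamethasone 1 and 100609 in dexamethasone 2, and its scaled level was 3306, 1088, 3493 and 1077 CPM in the same order. The libraries numbered 1 stood together near the upper value and those numbered 2 near the lower one, so the groups overlapped. Per kb of exon, its level ranked 8, 37, 6 and 40 among the 13221 tested genes with a known length. Dexamethasone differed from vehicle by 0.06 on the log2 scale (SE 0.766, 95% confidence interval -1.97 to 2.09; edgeR adjusted p = 0.9999).

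Myh8, the perinatal heavy chain, was next in level among the sarcomeric members by counts. Its levels were 846 CPM in vehicle 1, 275 in vehicle 2, 866 in dexamethasone 1 and 265 in dexamethasone 2. The same split by library number was seen, with overlapping groups, and the fitted difference between dexamethasone and vehicle was 0.01 log2 (SE 0.769, interval -2.02 to 2.05; edgeR adjusted p = 0.9999). The ratio of Myh3 to Myh8 counts was nearly constant, at 3.91, 3.95, 4.03 and 4.06 in vehicle 1, vehicle 2, dexamethasone 1 and dexamethasone 2. Both developmental genes together made up 83.3%, 86.2%, 83.4% and 86.3% of all counts on the 8 sarcomeric members.

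Myh1, the adult fast IIx heavy chain, was the most abundant of the 3 adult fast forms in every library. In the libraries numbered 2 it stood below the slow-type Myh7b. Its scaled level was 438 CPM in vehicle 1 and 53.9 in vehicle 2, and 461 in dexamethasone 1 and 57.8 in dexamethasone 2. The 2 libraries of a group thus differed by about 8-fold (8.14-fold in vehicle, 7.98-fold in dexamethasone), and the groups overlapped. Against that spread the fitted difference was 0.08 log2 (SE 1.31, interval -3.40 to 3.55; edgeR adjusted p = 0.9999).

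Myh4, the fast IIb heavy chain, and Myh2, the fast IIa heavy chain, were low. Myh4 had 247, 72, 386 and 205 counts, or 13.2, 1.90, 12.9 and 2.19 CPM, in vehicle 1, vehicle 2, dexamethasone 1 and dexamethasone 2. Myh2 had 127, 16, 196 and 29 counts, or 6.81, 0.421, 6.54 and 0.310 CPM. Both were high in the libraries numbered 1 and low in those numbered 2, in either group, and Myh2 rested on 16 counts in vehicle 2. The fitted differences were -0.00 log2 for Myh4 (interval -3.18 to 3.18) and -0.08 for Myh2 (interval -4.68 to 4.53), each with an edgeR adjusted p of 0.9999.

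Myh7, the slow and beta-cardiac heavy chain, read 233 CPM in vehicle 1, 47.1 in vehicle 2, 243 in dexamethasone 1 and 45.4 in dexamethasone 2. Its neighbour Myh6, the alpha-cardiac chain, read 12.5, 4.82, 11.0 and 3.69 CPM in that order. Neither separated the groups, with fitted differences of 0.05 log2 for Myh7 (interval -2.76 to 2.86) and -0.24 for Myh6 (interval -2.11 to 1.63; edgeR adjusted p = 0.9999 for both). Within a library number, Myh6 was lower with dexamethasone in both cases, by a log2 ratio of -0.18 between the libraries numbered 1 and -0.38 between those numbered 2.

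Myh7b, an ancient slow-type heavy chain whose gene carries the microRNA Mir499, varied least between libraries among the sarcomeric members. Its level was 127 CPM in vehicle 1, 110.0 in vehicle 2, 135 in dexamethasone 1 and 105 in dexamethasone 2, a mean of 119 ± 12.3 (SD, n = 2) in vehicle and 120.1 ± 21.8 (SD, n = 2) in dexamethasone. The groups overlapped, but over a range that was narrow beside that of Myh3 or Myh1. The interval of its fitted difference was correspondingly tighter, from -0.46 to 0.50 around 0.02 log2 (edgeR adjusted p = 0.9999). The microRNA rows Mir208a, Mir208b and Mir499, which lie in Myh6, Myh7 and Myh7b, had 0 counts in all 4 libraries. How reads that lie in both genes were counted is not given, so these counts do not show that the microRNAs were not transcribed.

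Myh9 encodes nonmuscle myosin IIA. It had 14089 counts in vehicle 1, 36238 in vehicle 2, 23815 in dexamethasone 1 and 75673 in dexamethasone 2, which gave 755, 955, 794 and 810.1 CPM. Both dexamethasone libraries lay between the vehicle libraries. The means were 855 ± 141 CPM (SD, n = 2) in vehicle and 802 ± 11.3 (SD, n = 2) in dexamethasone, a fitted difference of -0.09 log2 (SE 0.169, interval -0.54 to 0.35; edgeR adjusted p = 0.9999).

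Myh10 encodes nonmuscle myosin IIB and had the fitted difference of largest size among the 10 genes. Its level was 69.3 CPM in vehicle 1 and 48.7 in vehicle 2, and 86.8 in dexamethasone 1 and 68.2 in dexamethasone 2. Vehicle 1 stood just above dexamethasone 2, so the groups overlapped on this scale. Without TMM scaling the same libraries gave 65.9, 52.7, 80.2 and 71.9 CPM and did not overlap. The fitted difference was 0.39 log2 (SE 0.235, interval -0.23 to 1.02; edgeR unadjusted p = 0.160, adjusted p = 0.9999), and between libraries of the same number it was 0.32 and 0.48. Counts of Myh9 exceeded those of Myh10 by 10.9-fold in vehicle 1, 19.6-fold in vehicle 2, 9.15-fold in dexamethasone 1 and 11.9-fold in dexamethasone 2.

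Over the family, 0 of 10 genes passed an edgeR adjusted p of 0.05, where 0.0376% of the 13285 tested genes did. At an unadjusted p under 0.05 the number was also 0 of 10, against 5.78% of all tested genes, and DESeq2's Wald test called 0 of 10, against 2.17%. With 10 genes, a count of 0 is close to each of these shares. The lower dexamethasone library exceeded the higher vehicle library for 0 of 10 genes, against 15.0% of all tested genes, and the opposite separation was seen for 0 of 10, against 12.9%. The fitted differences were positive for 6 genes and negative for 4, with a median of 0.015 log2 beside -0.0016 over all tested genes. With standard errors from 0.169 (Myh9) to 1.74 (Myh2), the 95% intervals of 7 of the 8 sarcomeric members, all but Myh7b, reached past 2-fold in both directions in this fit.

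**Figure D1:**
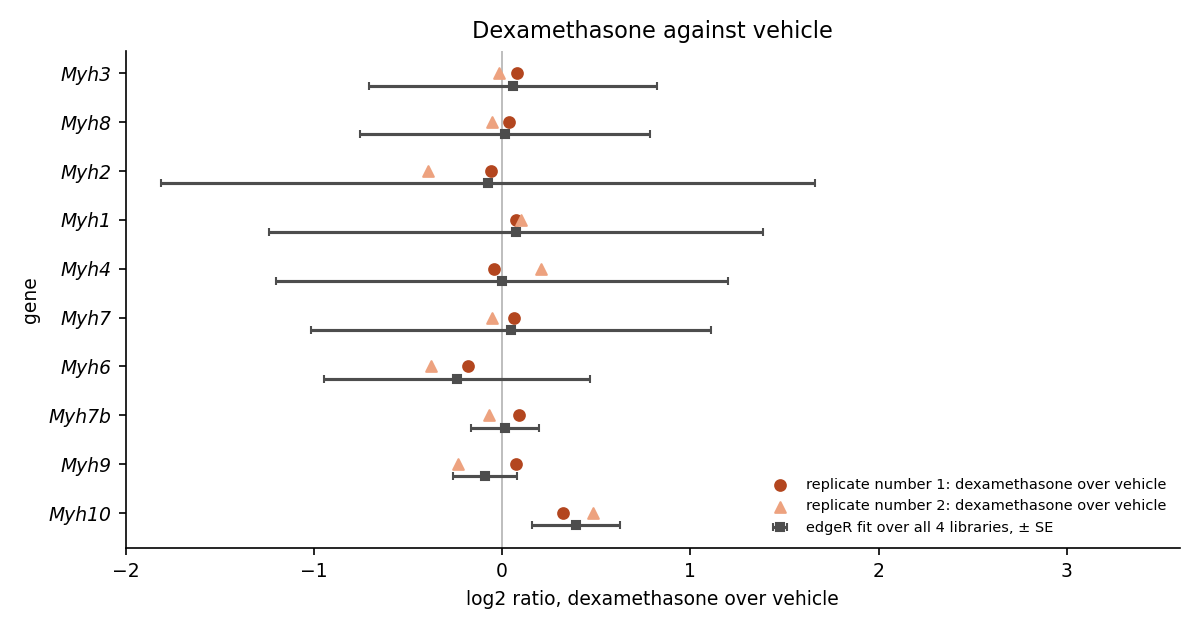
Difference between dexamethasone and vehicle for each myosin heavy chain gene, on a log2 axis. Coloured points are the ratio within each replicate number and grey squares the edgeR estimate over all 4 libraries with its SE. The largest estimate is that of Myh10, at 0.39, and the bars are widest for Myh2 and Myh1.

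Libraries with the same number in the 2 groups gave close values for 7 of the 8 sarcomeric genes, while libraries of the same group did not; Myh7b was close in both respects. In vehicle, replicate 1 exceeded replicate 2 by 3.04-fold for Myh3, 3.07-fold for Myh8, 16.2-fold for Myh2, 6.98-fold for Myh4, 4.94-fold for Myh7 and 2.59-fold for Myh6. In dexamethasone the same ratios were 3.24, 3.26, 21.1, 5.87, 5.36 and 2.98. Thus 7 of 10 members, Myh1 among them, were at least 2-fold higher in replicate 1 in both groups, against 3.17% of all tested genes. Of these, Myh2, Myh4 and Myh6 were low and share sequence with more abundant heavy chains, as described below, so their ratios are less certain. The reverse, at least 2-fold higher in replicate 2 in both groups, held for 0 of 10 members and 1.32% of all tested genes.

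The other members differed less between library numbers. Myh7b was 1.16-fold higher in replicate 1 of vehicle and 1.29-fold in dexamethasone, and Myh10 1.42-fold and 1.27-fold. For Myh9 the ratio of replicate 1 to replicate 2 was 0.791 in vehicle and 0.980 in dexamethasone, so both replicate 2 libraries were the higher. The median ratio over all tested genes was close to even, at -0.0079 log2 in vehicle and -0.011 in dexamethasone. The 8 sarcomeric members had medians of 1.96 and 2.06.

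**Figure D2:**
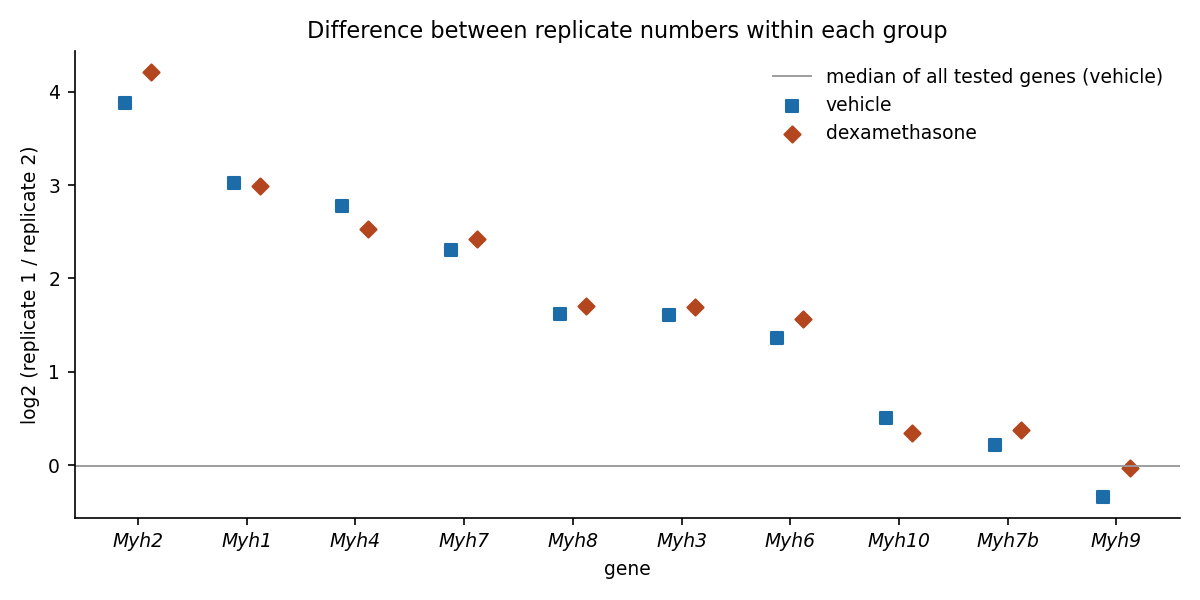
Log2 ratio of replicate 1 to replicate 2 for each gene, in vehicle and in dexamethasone, ordered by size. The 7 genes from Myh2 to Myh6 lie above 1 (2-fold) in both groups, while Myh10, Myh7b and Myh9 lie close to the median of all tested genes (grey line).

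Some markers of differentiated muscle moved with the same split. Summed without TMM scaling, the myotube markers gave 2172 CPM in vehicle 1 and 2210 in dexamethasone 1. They gave 1204 CPM in vehicle 2 and 1254 in dexamethasone 2. Of these 8 markers, 4 (Ckm, Acta1, Actn2, Tnnc2) were at least 2-fold higher in replicate 1 in both groups, against 3.17% of all tested genes. Ckm, muscle creatine kinase, read 53.6 and 50.6 CPM in the libraries numbered 1 against 6.98 and 7.72 in those numbered 2. Mymk, which drives myoblast fusion, read 176 and 173 CPM in vehicle 1 and vehicle 2 and thus did not follow the split. Tnnt3 was 1.16-fold higher in replicate 1 of vehicle and 1.30-fold in dexamethasone. The same ratios were 1.68 and 1.63 for Chrna1 and 2.08 and 1.94 for Myog. The 6 myoblast or reserve cell markers, also summed without TMM scaling, gave 625 and 592 CPM in the libraries numbered 1. Those numbered 2 gave 778 and 699.5 CPM. The TMM factors were 0.950 and 0.924 for vehicle 1 and dexamethasone 1, and 1.08 and 1.05 for vehicle 2 and dexamethasone 2. Dividing by them narrows this gap. Most of each sum was Itga7, with TMM-scaled levels of 498 and 455 CPM in the libraries numbered 1 and 537 and 491 in those numbered 2. Scaled, Vcam1 and Myf5 were instead higher in the libraries numbered 1 of both groups, and Sdc4 in that of dexamethasone. Of the 6 markers, 0 were at least 2-fold apart in both groups. The 5 markers of dividing cells summed to 21.0 to 27.9 CPM over the 4 libraries, again without TMM scaling. The part of these markers in the difference between myosin libraries was not tested.

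Levels of different genes were compared per kb of exon, using exon lengths of the GENCODE M21 annotation. The counting mode is not given, so the counts may include intronic reads, for which exon length is not the fitting divisor. The whole genes span 24.0 kb for Myh3, 81.6 kb for Myh9 and 125 kb for Myh10. Averaged over the 4 libraries, Myh3 stood first at 370.0 CPM per kb (range 178 to 577), followed by Myh9 at 64.1 (58.4 to 73.8), Myh8 at 47.8 (22.5 to 73.6) and Myh1 at 39.8 (8.48 to 72.5). Myh7b at 18.0 (15.8 to 20.4), Myh7 at 16.5 (5.27 to 28.2) and Myh10 at 6.53 (4.66 to 8.30) came next. Myh4 at 1.26, Myh6 at 1.19 and Myh2 at 0.493 CPM per kb were lowest. The ranges of neighbours in this order overlapped except between Myh3 and Myh9 and between Myh10 and Myh4. Compared within each library, Myh8 stood above Myh1 and Myh6 above Myh2 in all 4. The other neighbours with overlapping ranges changed places between libraries, so their order is not set.

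**Figure D3:**
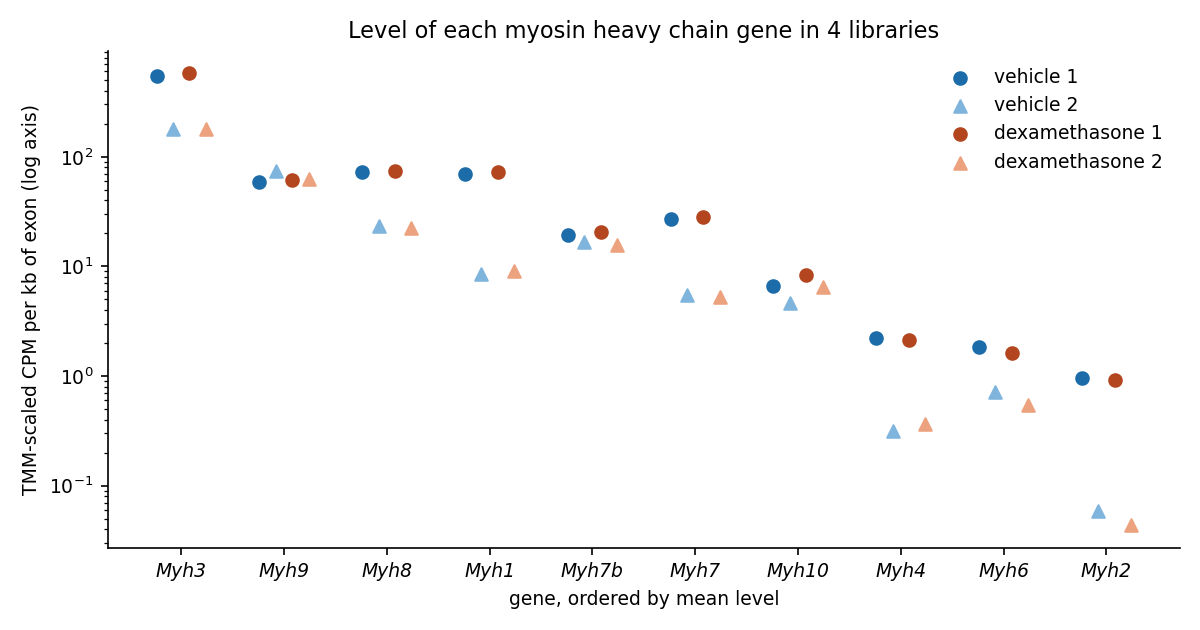
TMM-scaled CPM per kb of exon (log axis) of each gene in each library, genes ordered by their mean. Circles (libraries numbered 1) lie above triangles (libraries numbered 2) for Myh3, Myh8, Myh1, Myh7, Myh4, Myh6 and Myh2 in both groups, whereas the 4 Myh9 points lie between 58.4 and 73.8.

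The make-up of the family differed between library numbers too. Myh3 held 56.9% of the 10 genes' counts in vehicle 1 (Wilson interval 56.6% to 57.2%), 42.1% in vehicle 2, 57.2% in dexamethasone 1 and 44.2% in dexamethasone 2. Myh9 held 13%, 36.9%, 13% and 33.3%, in the same order. When each gene's counts were first divided by its exon length, the share of Myh3 was 68.0%, 57.4%, 68.2% and 59.1% and that of Myh9 7.28%, 23.6%, 7.26% and 20.8%. Myh1 held 7.55% of the counts in vehicle 1 and 7.54% in dexamethasone 1, against 2.08% in vehicle 2 and 2.37% in dexamethasone 2. The 3 adult fast genes together made up 9.20%, 3.55%, 9.18% and 3.87% of the sarcomeric counts, so the libraries numbered 2 held a smaller adult fast share as well as lower levels.

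**Figure D4:**
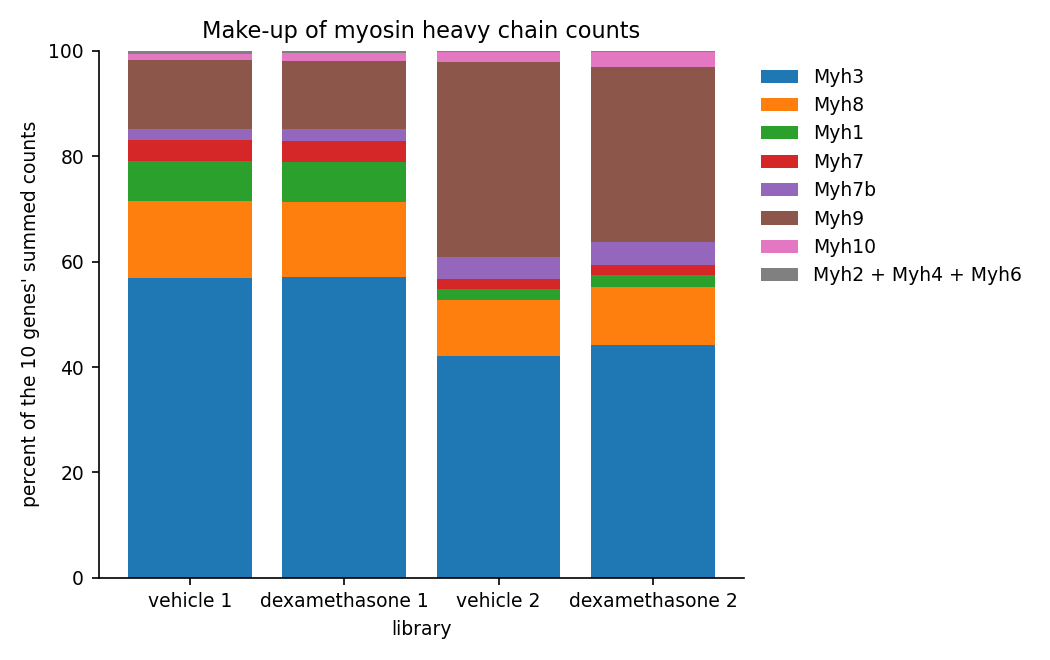
Percent of the 10 genes' summed counts held by each gene in each library, not divided by length. Libraries are placed beside the one with the same number; Myh3 holds 56.9% and 57.2% in those numbered 1 and 42.1% and 44.2% in those numbered 2, where Myh9 holds more.

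The sarcomeric to nonmuscle balance was tested within libraries, which removes scaling between them. Counts on the 8 sarcomeric genes exceeded those on Myh9 and Myh10 by 6.04-fold in vehicle 1, 1.58-fold in vehicle 2, 5.94-fold in dexamethasone 1 and 1.77-fold in dexamethasone 2. Both groups therefore held a high and a low library. The mean log2 ratio was 1.63 ± 1.37 (SD, n = 2) in vehicle and 1.70 ± 1.23 (SD, n = 2) in dexamethasone, a difference of 0.07 with an exact two-sided permutation p of 1, where the smallest p that 6 splits allow is 0.333.

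Reads of one heavy chain can fit another, since the sarcomeric genes are close copies, and how such reads were counted is not given in the sources used here. Of the 50-base stretches in the protein-coding transcripts of a gene, the share that also occurs in another gene's transcripts was 26.9% for Myh2, 25.4% for Myh1, 21.9% for Myh6, 21.2% for Myh7, 18.9% for Myh4 and 16.7% for Myh8. Myh2 shared 19.7% of its stretches with the far more abundant Myh1, and Myh6 shared 21.9% with Myh7. The low values of Myh2, Myh4 and Myh6 are therefore uncertain. The share was 4.76% for Myh3, 1.11% for Myh9, 0.840% for Myh10 and 0 for Myh7b, whose values do not rest on such sharing within exons.

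The genes whose profiles over the 4 libraries were most like those of the leading sarcomeric and nonmuscle members were found by the distance between log2 CPM values centred on each gene's mean, among 8071 genes with a mean of at least 10 CPM. For Myh3 the nearest were Sfr1 (distance 0.038), Myh8 (0.044), Apobec2 (0.092), Lgals1 (0.106) and B3galt5 (0.116). Apobec2 is a muscle-enriched member of the cytidine deaminase family and Lgals1 encodes galectin-1. For Myh9 the nearest were Nop53, Glis1, Cog1, Prrc2a and Scrib, at distances from 0.019 to 0.050. Sfr1, like Myh3, read higher in the libraries numbered 1 (24.1 and 24.7 CPM) than in those numbered 2 (7.64 and 7.70). A likeness over 4 libraries is a description only.

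Within the chromosome 11 cluster, the long noncoding gene 2310065F04Rik on the opposite strand between Myh3 and Myh2 had 57 counts in vehicle 1, 29 in vehicle 2, 127 in dexamethasone 1 and 71 in dexamethasone 2. Scaled, it was 4.0-fold higher in replicate 1 of vehicle and 5.57-fold in dexamethasone, as the neighbouring heavy chains were. Sco1, the gene before Myh3 and an assembly factor of the respiratory chain, read 28.3, 21.8, 26.5 and 23.4 CPM and was within 2-fold between library numbers. Myh13, at the far end, had 8 and 14 counts in vehicle and 36 and 81 in dexamethasone, or 0.429 and 0.369 CPM against 1.20 and 0.867. Its groups did not overlap, with a fitted difference of 1.37 log2 (SE 0.416, edgeR adjusted p = 0.624).

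Genes that work with the heavy chains were read from lists of light chains, chaperones, filament partners, regulators and nonmuscle partners. Among the myosin light chains and their kinases, 0 of 14 tested genes passed the edgeR adjusted threshold, 0 had an unadjusted p under 0.05 and 0 were called by DESeq2, with a median difference of -0.10 log2. The largest differences in this list were -0.66 for Mylip (SE 0.269), 0.55 for Mylk4 (SE 0.259) and 0.51 for Mylk2 (SE 0.691). Mylk4 and Mylk2 are myosin light chain kinases, while Mylip, though placed in the list, is neither a light chain nor such a kinase. Mylpf, the fast regulatory light chain, followed the split of the heavy chains, at 409 and 583 CPM in the libraries numbered 1 of vehicle and dexamethasone and 71.4 and 92.8 in those numbered 2. In this list 3 of 14 genes were at least 2-fold higher in replicate 1 in both groups, against 3.17% of all tested genes.

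Of the 12 folding and assembly genes 0 passed the edgeR adjusted threshold, and 2 had an unadjusted p under 0.05, both in the higher direction (Trim63 and Trim54), beside 5.78% of all tested genes in either direction; DESeq2 called 0. Trim63 encodes MuRF1, the ubiquitin ligase that marks myosin heavy chain for breakdown in atrophy. It read 36.9 and 30.4 CPM in vehicle and 68.6 and 45.8 in dexamethasone, so the groups did not overlap, with a fitted difference of 0.76 log2 (SE 0.249, edgeR adjusted p = 0.714). The chaperones Cryab and Hsp90ab1 had differences of 0.59 and 0.38 with overlapping groups. Over the list the median was 0.07.

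Among the thick filament partners, 0 of 11 tested genes passed the edgeR adjusted threshold, 0 had an unadjusted p under 0.05 and DESeq2 called 0, with a median of 0.29 log2. The slow and fast myosin-binding proteins C, Mybpc1 and Mybpc2, had differences of 0.63 (SE 0.393) and 0.52 (SE 1.25), and Myot, the Z-disc protein myotilin, 0.62 (SE 1.38). In this list 4 of 11 genes, Mybpc2, Ttn, Cmya5 and Myot, were at least 2-fold higher in replicate 1 in both groups, against the same 3.17%. Ttn differed by 2.88-fold in vehicle and 2.84-fold in dexamethasone. Ttn encodes titin, the giant protein that spans the sarcomere beside the thick filament.

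Of the regulators of heavy chain genes, 28 of 32 listed were tested and 0 passed the edgeR adjusted threshold. At an unadjusted p under 0.05 there were 2 higher (Prdm1, Six4) and 1 lower (Nfix), and DESeq2 called 2 higher (Prdm1, Six4) and 1 lower (Nfix). The shares over all tested genes, in either direction, were 5.78% and 2.17%. Prdm1, the repressor Blimp-1, which in zebrafish directs slow fibre fate, read 0.483 and 0.896 CPM in vehicle and 10.3 and 13.9 in dexamethasone. Its groups lay far apart, with a fitted difference of 4.07 log2 (SE 0.380, edgeR adjusted p = 0.117). Six4, a homeobox factor that acts on fast muscle genes, read 56.2 and 44.7 CPM in vehicle and 111 and 92.2 in dexamethasone, a difference of 1.01 (SE 0.183, edgeR adjusted p = 0.240). Nfix, which drives the switch from embryonic to fetal muscle genes, read 344 and 499 CPM against 188 and 246, a difference of -0.96 (SE 0.252, edgeR adjusted p = 0.489). Beside these, the fitted differences of Myh3, Myh7 and Myh1 were 0.06, 0.05 and 0.08.

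For the 19 tested partners of nonmuscle myosin the edgeR adjusted count was 0, the unadjusted count 1 higher (Ppp1r12b; 5.78% of all tested genes) and the DESeq2 count 0, with a median of 0.05 log2. Ppp1r12b, a targeting subunit of myosin phosphatase, read 249 and 282 CPM in vehicle and 379 and 403 in dexamethasone, a difference of 0.56 (SE 0.136, edgeR adjusted p = 0.421). Septin9 and Rock2, the latter a kinase that activates nonmuscle myosin, had differences of 0.50 and 0.39. In this list 0 of 19 genes were at least 2-fold higher in replicate 1 in both groups, against 3.17% of all tested genes. For replicate 2 the count was 0 of 19, against 1.32%, so both counts were close to the shares over all tested genes.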

How the data were processed

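Raw read counts per gene were deposited by the authors in one table for the 4 libraries. Per the submitters' processing notes, the tools were TopHat2 2.0.13, SAMtools 1.1, HTSeq 0.6.1 and DESeq2 1.18.1, and the build mm9. The annotation, the counting mode, the use of strand and the treatment of multiply mapped reads are not given in the sources used here, and the labels' protocols name both a stranded total RNA kit and a stranded mRNA kit. Table columns named Control and DEX were matched to the vehicle and dexamethasone libraries by name and number.

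Of 23333 rows, 51 repeated an earlier row and were removed; 0 lacked a gene name. Genes were kept with edgeR's filterByExpr (minimum count 10, total 15), leaving 13285. They were scaled by TMM and tested with edgeR 4.0.16 in R 4.3.3 (quasi-likelihood, two-sided, group as the only term, residual degrees of freedom 2). P-values were adjusted by Benjamini-Hochberg over all tested genes, with a threshold of 0.05. The test was checked on simulated counts with less spread than these libraries and no difference between replicate numbers. That check therefore does not show how the test behaves here. DESeq2 1.42.0, library size scaling, no filter, the replicate number as a block and leaving out each library were alternatives; log2 CPM values used a prior count of 2. Exon lengths came from GENCODE M21 (GRCm38) and covered 13221 tested genes; promoters came from RefSeq GRCm38.p6, where all 10 genes matched. All 10 members are named throughout, with the 5 nearest profiles to Myh3 and Myh9. The 3 largest absolute differences are named for the lists of light chains, folding genes, filament partners, regulators and nonmuscle partners. In the lists of cell type markers not all of the 3 largest are named. Other genes were named after their values were seen. The values of 1 list gene are not reported here and it is left out of its list's counts. Members and lists were chosen with earlier results of these data known.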

Additional observations from a re-analysis of the deposited data

How the results depend on the processing

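The number of genes called by edgeR was 5 (5 higher, 0 lower), and became 23 with no filter on low counts, 288 with DESeq2 (235 higher, 53 lower) and 4 to 193 when single libraries were left out, the 4 without vehicle 1 and the 193 without vehicle 2. With the replicate block it was 1681 (913 higher, 768 lower), or 12.7% of genes. The labels do not say that a number marks a shared culture or day, so the libraries share only a number; the differences between replicates of the 2 groups correlated across genes (Pearson's r = 0.734). Under the replicate block, which leaves 1 residual degree of freedom, 1 of the 10 members passed, Myh10 (0.41 log2, SE 0.0666, edgeR adjusted p = 0.0110; adjusted p up to 0.9999 over its other settings). The blocked 95% intervals of the fold were narrow for the main sarcomeric members. They were 0.939 to 1.11 for Myh3, 0.909 to 1.09 for Myh8, 0.970 to 1.16 for Myh1 and 0.910 to 1.11 for Myh7. Among the sarcomeric members, the blocked interval of Myh6 alone left out 1, at 0.682 to 0.994 around 0.823 (edgeR unadjusted p = 0.0451, adjusted p = 0.182). Signs of values near 0 turned for Myh8 (-0.0278 with library size only, -0.0089 with the block), Myh7b (-0.0270 with library size only) and Myh4 (0.0189 with no filter, 0.0539 with the block). The cause was not tested. The other 44 planned member values kept direction and side of the threshold.

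Leaving out single libraries left 1 library in a group, assumed to vary like the other group, and gave log2 differences of -1.02 to 1.07 for Myh3, -1.07 to 1.04 for Myh8, -3.49 to 2.97 for Myh2, -2.08 to 2.27 for Myh1, -1.75 to 1.97 for Myh4, -1.61 to 1.62 for Myh7 and -1.21 to 0.59 for Myh6. They were -0.17 to 0.19 for Myh7b, -0.25 to 0.094 for Myh9 and 0.17 to 0.67 for Myh10. The sarcomeric to nonmuscle difference ranged from -0.90 to 1.04. The mean share of Myh3 in the family, 63.2% per kb of exon, was 50.1% without length and 50.2% by coding length, an alternative added after seeing the data; the corresponding shares were 12.6% and 12.6% for Myh8, 24.1% and 23.9% for Myh9 and 0.183% and 0.184% for Myh6. By coding length Myh7 and Myh6 moved ahead of Myh7b and Myh4 in the order of levels.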

Other observations

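Markers of other cell types that a myotube culture could hold did not pass the edgeR adjusted threshold between the groups. Of 6 myoblast or reserve cell markers, 0 passed the edgeR adjusted threshold and DESeq2 called 0. At an unadjusted p under 0.05 there were 1 higher (Sdc4) and 1 lower (Pax7). Over all tested genes, the shares to set beside the counts of this paragraph were 5.78% at that p and 2.17% by DESeq2, in either direction. Pax7, the satellite cell factor, read 32.0 and 39.0 CPM in vehicle and 17.9 and 22.9 in dexamethasone, a difference of -0.80 log2 (SE 0.201, edgeR adjusted p = 0.456). Among 3 tested smooth muscle markers edgeR called 0 after adjustment, with 1 higher at an unadjusted p under 0.05 (Myocd), which DESeq2 also called. Myocd, a coactivator of smooth and cardiac muscle genes, read 1.23 and 0.448 CPM in vehicle and 3.67 and 4.08 in dexamethasone (2.27 log2, SE 0.542, edgeR adjusted p = 0.406). Among 3 tested fibroblast markers edgeR called 0 after adjustment and DESeq2 0, with 1 higher at an unadjusted p under 0.05 (Pdgfra, 1.04 log2). Dpt went the other way, at -1.51 log2 (SE 0.592, edgeR unadjusted p = 0.0559), on 8 to 16 counts in a library. Col15a1 had a difference of 0.36 log2 with overlapping groups.

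Of the other heavy chain genes in the table, Myh11 of smooth muscle read 1.77 and 1.32 CPM with vehicle against 2.43 and 1.178 with dexamethasone, with overlapping groups. Myh14, which encodes nonmuscle myosin IIC, had 1 to 7 counts in a library, and Myh15 had 2 to 14, both under the filter. Mhrt, a noncoding RNA of the Myh6 and Myh7 region, had 1 to 4 counts in a library.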
